A study of Mus musculus with 8 samples.

Results

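The genes described here are the receptors for prolactin, growth hormone and leptin (Prlr, Ghr, Lepr), the small membrane proteins Leprot and Leprotl1, the kinase Jak2, the transcription factors Stat3, Stat5a and Stat5b, and the feedback inhibitor Socs3. They are 10 of the 24421 gene symbols counted, taken by name, and all 10 passed the filter on low counts. The set was chosen by family with the fold changes between the same 4 KO and 4 Control libraries already known, so those fold changes are given as a description of these libraries and support nothing further. The libraries hold RNA bound to tagged ribosomes, purified from dissected hypothalamus and medial amygdala of C57BL/6 mice. KO mice had the genotype Otp-Cre, Cic flox/flox, ROSAfsTRAP. Control mice had Otp-Cre and ROSAfsTRAP and no floxed Cic allele, so every mouse carried the Cre driver and the ribosome tag. Recombination follows the Otp lineage, so cells that once expressed Otp are tagged whether or not they still do. The ages of the mice, and whether a library came from 1 animal, are not given in the labels, and p-values reflect only how far these libraries scatter, which may be technical.

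Prolactin, growth hormone and leptin act on class I cytokine receptors, single-pass membrane proteins without a kinase domain of their own. Hormone binding activates the JAK2 kinase held on the receptor tail, and JAK2 phosphorylates STAT proteins, which move to the nucleus and bind DNA. STAT3 is the main STAT of leptin signalling, STAT5A and STAT5B are those of prolactin and growth hormone, and SOCS3, itself induced by STAT3, shuts the receptor complex down. LEPROT and its relative LEPROTL1 are endosomal proteins known to lower the amount of leptin and growth hormone receptor at the cell surface. In the hypothalamus these receptors carry hormonal signals on lactation, growth and energy balance.

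Stretches before the start sites of Prlr, Leprot and Socs3 are shown because the first is the receptor and the second the trafficking gene whose libraries differed most clearly between the groups, and the third is the feedback gene of the pathway. Each is the 250 bases before a RefSeq start site on GRCm38.p6, 5′ to 3′ on the gene's own strand. Capitals in Prlr and Socs3 mark TTCNNNGAA, the GAS motif that STAT dimers are known to bind, and capitals in Leprot mark the GC box GGGCGG, which is not marked in the others. Their positions are chr15:10223656-10223905 on the plus strand for Prlr, chr4:101647533-101647782 on the plus strand for Leprot and chr11:117969367-117969616 on the minus strand for Socs3. Prlr has other RefSeq start sites, and the stretch shown is the only one of them with a GAS match. It lies inside the gene and not at its 5′ end.
Prlr: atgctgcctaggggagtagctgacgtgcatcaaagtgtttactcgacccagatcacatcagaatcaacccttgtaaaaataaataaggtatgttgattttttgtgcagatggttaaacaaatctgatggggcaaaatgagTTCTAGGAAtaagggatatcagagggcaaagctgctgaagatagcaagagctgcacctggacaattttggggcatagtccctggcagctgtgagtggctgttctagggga
Leprot: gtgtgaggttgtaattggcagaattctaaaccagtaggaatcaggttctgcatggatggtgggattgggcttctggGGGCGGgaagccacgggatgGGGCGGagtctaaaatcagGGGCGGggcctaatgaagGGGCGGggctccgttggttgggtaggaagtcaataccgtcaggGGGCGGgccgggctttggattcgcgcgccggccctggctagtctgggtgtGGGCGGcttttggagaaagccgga
Socs3: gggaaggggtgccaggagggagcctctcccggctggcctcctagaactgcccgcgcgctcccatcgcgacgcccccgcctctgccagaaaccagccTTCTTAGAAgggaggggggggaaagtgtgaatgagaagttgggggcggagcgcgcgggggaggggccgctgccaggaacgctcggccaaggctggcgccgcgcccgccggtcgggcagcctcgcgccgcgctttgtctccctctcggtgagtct

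The RefSeq table held 15 start-site windows of 300 bases, 250 before to 50 after the start, for 9 of the 10 genes, and none was matched for Leprotl1. On either strand, TTCNNNGAA was found in 2 of these 15 windows, the one of Socs3 and 1 of the 3 of Prlr, against 8.30% of all 32851 windows. In Socs3 the motif began 154 bases before the start and in Prlr 110 bases before it. GGGCGG was found in 8 of the 15 windows against 35.7% of all windows, and the 250 bases of Leprot held 6 copies. The octamers TGAATGAA and TGAATGGA, which CIC is known to bind, were found in 0 of the 15 windows, against 1.30% and 1.21% of all windows. These are matches of letters in short windows and are not evidence of binding or of its absence. The counts are per gene, so they do not say which of the 3 Prlr starts was used.

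The KO libraries held 33223878 to 49587839 gene counts each and the Control libraries 38171319 to 57300362. Cic, the targeted gene, was lower in every KO library (34.5 to 59.2 CPM) than in any Control library (72.3 to 103 CPM), with counts taken over the whole gene. CPM is a gene's count as a rate within its library's gene counts, after TMM scaling. Over the 15438 genes tested, 40 passed an edgeR adjusted p of 0.05 (0.259%), 30 higher in KO (0.194%) and 10 lower (0.0648%), and the groups did not overlap for 5.93%. The number that passed was 26 without KO replicate 2, and 19, 17, 26 and 14 without Control replicates 1, 2, 3 and 4. KO replicate 2 stood apart in pituitary hormone RNA, with growth hormone (Gh) at 1464 CPM and prolactin (Prl) at 206.9 CPM. In the other 7 libraries Gh was at most 2.62 CPM and Prl at most 0.0616 CPM. Fold changes of the 10 genes are therefore also given without KO replicate 2.

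Per length of exon, the 10 genes spanned a wide range of levels. In Control the order by mean CPM per kb of merged exon was Leprotl1 (50.4 ± 1.93 SD, n = 4), Leprot (13.9 ± 1.87), Jak2 (10.05 ± 0.706), Stat5b (3.89 ± 0.739), Stat3 (2.48 ± 0.0769), Ghr (2.28 ± 0.0880), Prlr (0.946 ± 0.170), Lepr (0.377 ± 0.0929), Socs3 (0.288 ± 0.114) and Stat5a (0.0990 ± 0.0375). Lepr and Socs3 were the only neighbours in that order whose 4 Control libraries overlapped. In KO the order was the same except that Jak2 (9.94 ± 0.804) stood above Leprot (8.57 ± 0.677), and the libraries of these genes overlapped there (8.75 to 10.5 CPM per kb for Jak2, 7.57 to 8.99 for Leprot). With the length of the longest transcript in place of merged exons, Ghr moved above Stat5b and Stat3 in Control. Stat5a was the lowest of the 10 and rested on 16 to 100 counts per library, Socs3 on 19 to 63 and Lepr on 70 to 147, whereas Leprotl1 rested on 4242 to 8148.

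**Figure D1:**
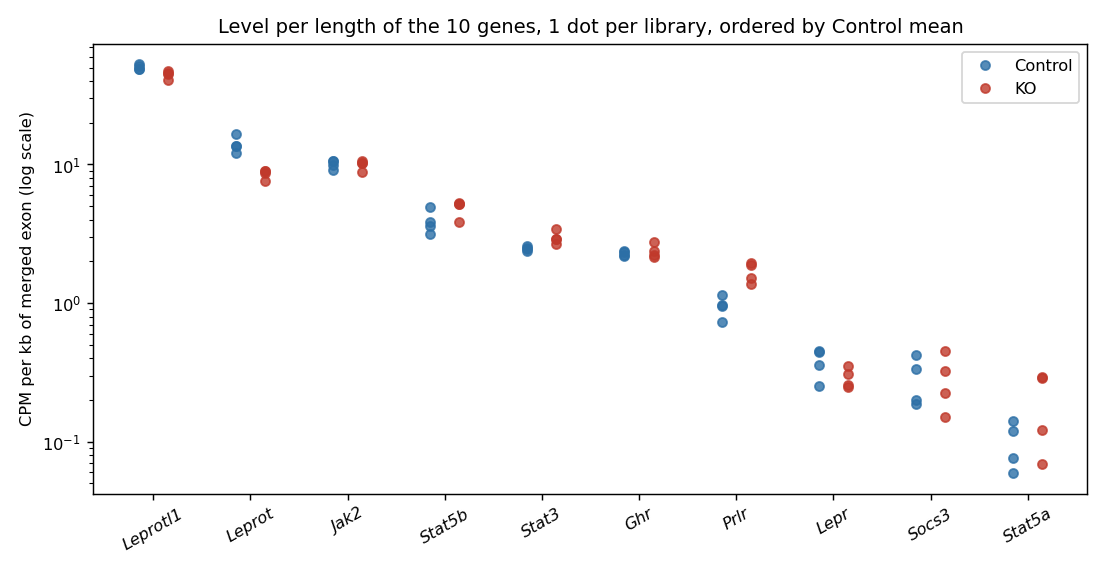
Level of each gene in CPM per kb of merged exon (log axis), 1 dot per library, Control in blue and KO in red, ordered by the Control mean. Leprotl1 lies highest at 50.4 CPM per kb and Stat5a lowest at 0.0990, and Leprot and Jak2 change places between the groups.

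Prlr, the prolactin receptor, was higher in KO. It measured 29.6, 23.4, 29.0 and 21.2 CPM in KO replicates 1 to 4 and 14.8, 11.2, 17.6 and 14.5 CPM in Control replicates 1 to 4. Every KO library lay above every Control library, and the gap between the lowest KO and the highest Control library was 21.2 against 17.6 CPM. The means were 25.8 ± 4.16 and 14.5 ± 2.61 CPM (SD, n = 4 each), a fold of 1.78 (log2 fold change 0.83, SE 0.18). In bulk RNA, a difference in the number of cells of a type and a difference in RNA per cell cannot be told apart. Without KO replicate 2 the log2 fold change was 0.87, and over the 8 fits that left out 1 library it ran from 0.72 to 0.94. Prlr (ENSMUSG00000005268.20) occupies bases 10177238 to 10349180 of chromosome 15 (GRCm38, plus strand). Its 3′ part shares 23801 bases with Gm21973 on the same strand, a gene that has no row of its own in the tables.

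Ghr, the growth hormone receptor, had overlapping groups. It measured 19.3, 20.2, 25.0 and 21.4 CPM in KO and 20.1, 21.5, 19.9 and 21.2 CPM in Control, with KO replicate 3 highest of all. The means were 21.5 ± 2.48 and 20.7 ± 0.797 CPM (log2 fold change 0.05, SE 0.09). Like Prlr it lies on chromosome 15 (3317760 to 3583492, minus strand, ENSMUSG00000055737.12).

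Lepr, the leptin receptor, was scarce in these libraries. It measured 2.49, 1.74, 1.81 and 2.16 CPM in KO and 2.51, 1.79, 3.12 and 3.20 CPM in Control. Control replicate 2 lay among the KO libraries, so the groups overlapped. The means were 2.05 ± 0.347 and 2.66 ± 0.655 CPM (log2 fold change -0.37, SE 0.23, and -0.27 to -0.52 with 1 library left out). All Lepr isoforms are counted together, so the long, signalling form cannot be told from the short forms.

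Leprot was lower in KO. It measured 16.6, 14.4, 17.1 and 17.1 CPM in KO and 22.9, 25.7, 25.6 and 31.3 CPM in Control. All 4 KO libraries lay below all 4 Control libraries, and KO varied less between libraries. The means were 16.3 ± 1.28 and 26.4 ± 3.55 CPM, which puts KO at 61.7% of Control (log2 fold change -0.70, SE 0.11). The value was -0.65 without KO replicate 2 and -0.60 without Control replicate 4, its highest library. Leprot (ENSMUSG00000035212.14) lies on chromosome 4 from 101647718 to 101659364, before Lepr on the same plus strand (101717404 to 101815352, ENSMUSG00000057722.17), and GENCODE M21 gives the pair no overlap.

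Leprotl1, the most abundant of the 10 per length, had the same sign as Leprot and a smaller difference. It measured 116, 137, 130 and 131 CPM in KO and 139, 152, 147 and 142 CPM in Control. The groups did not overlap, by the narrow margin of 136.7 against 139.4 CPM. The means were 128 ± 8.59 and 145 ± 5.55 CPM, with KO at 88.5% of Control (log2 fold change -0.18, SE 0.06). The longest transcripts of Leprot and Leprotl1 shared 0 of the 1849 stretches of 50 bases in Leprot. Leprotl1 (ENSMUSG00000031513.8) lies on chromosome 8 from 34135572 to 34147033.

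Jak2, the kinase that all 3 receptors use, did not separate the groups. It measured 52.9, 51.3, 51.9 and 44.0 CPM in KO and 53.6, 49.8, 52.9 and 45.8 CPM in Control (means 50.01 ± 4.04 and 50.5 ± 3.55 CPM, log2 fold change -0.01, SE 0.08). Replicate 4 was the lowest library of each group. Jak2 (ENSMUSG00000024789.13) lies on chromosome 19 from 29251828 to 29313080.

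Stat3 was somewhat higher in KO, at 32.7, 25.2, 27.4 and 27.7 CPM against 24.5, 23.7, 23.4 and 22.8 CPM in Control. The groups did not overlap, but the lowest KO library (25.2 CPM) lay close to the highest Control library (24.5 CPM), and KO replicate 1 stood above the rest. The means were 28.3 ± 3.16 and 23.6 ± 0.732 CPM (log2 fold change 0.26, SE 0.08). Without KO replicate 1 the log2 fold change was 0.17.

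Stat5b, the more abundant of the STAT5 genes, measured 29.3, 28.6, 21.4 and 28.8 CPM in KO and 19.999, 21.5, 27.2 and 17.5 CPM in Control. KO replicate 3 lay among the Control libraries and Control replicate 3 near the KO libraries, so the groups overlapped (means 27.0 ± 3.75 and 21.5 ± 4.10 CPM, log2 fold change 0.33, SE 0.17). Stat5a measured 2.06, 0.872, 2.08 and 0.493 CPM in KO and 0.547, 0.846, 0.423 and 1.01 CPM in Control. KO replicates 1 and 3 were high and KO replicates 2 and 4 lay within the Control range, so its log2 fold change of 0.96 had an SE of 0.57. The longest Stat5a and Stat5b transcripts share exact stretches, 10.8% of the 50-base windows of Stat5a and 8.15% of those of Stat5b. Alignments that were not unique stand in a separate counter row and not under a gene, so reads from those stretches may be missing from both genes.

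The 3 STAT genes lie side by side on chromosome 11, with Stat5b from 100780731 to 100850724 (minus strand, ENSMUSG00000020919.11), Stat5a from 100859351 to 100885169 (plus strand, ENSMUSG00000004043.14) and Stat3 from 100885098 to 100939540 (minus strand, ENSMUSG00000004040.16). Stat5a and Stat3 overlap by 72 bases on opposite strands. None of the 10 genes lies on chromosome 7, where Cic and the floxed allele are.

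Socs3, the inhibitor that STAT3 induces, was near the floor of what these libraries hold. It measured 1.30, 0.436, 0.940 and 0.647 CPM in KO and 0.975, 0.541, 0.582 and 1.23 CPM in Control, on 19 to 63 counts. The groups overlapped across their whole range (means 0.830 ± 0.374 and 0.832 ± 0.330 CPM, log2 fold change -0.00, SE 0.43). Socs3 (ENSMUSG00000053113.3) lies on chromosome 11 from 117966079 to 117970047.

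**Figure D2:**
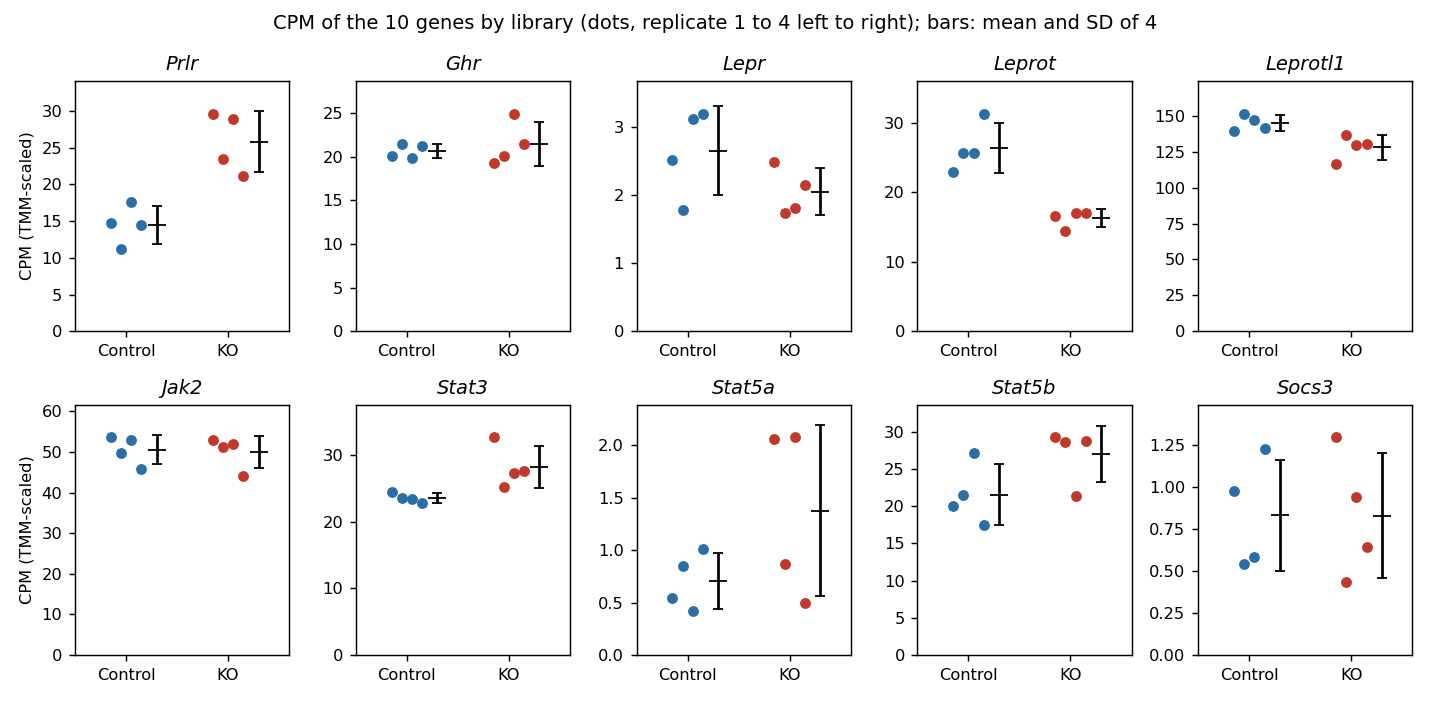
CPM of each of the 10 genes in every library (dots, replicates 1 to 4 from left to right), with the mean and SD of 4 libraries as bars and axes from 0. Prlr and Leprot separate most clearly, with KO at 21.2 to 29.6 against 11.2 to 17.6 CPM for Prlr and 14.4 to 17.1 against 22.9 to 31.3 CPM for Leprot, whereas Ghr, Jak2 and Socs3 overlap.

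Among the 10 genes 5 log2 fold changes were positive and 5 negative, with a median log2 fold change of 0.03 against 0.02 over all tested genes. The groups did not overlap for 4 of them, Prlr and Stat3 higher and Leprot and Leprotl1 lower in KO, and overlapped for 6, beside 5.93% of all tested genes without overlap. In the fit over all genes 2 of the 10 passed the threshold, Prlr upward and Leprot downward, beside the background of 0.259% of all genes given above. Without KO replicate 2 the log2 fold changes not yet given were 0.07 for Ghr, -0.31 for Lepr, -0.22 for Leprotl1, -0.04 for Jak2, 0.30 for Stat3, 1.12 for Stat5a, 0.29 for Stat5b and 0.20 for Socs3. Nothing is read from the counts of genes, since the same contrast was known when the genes were chosen. With 1 library left out, Prlr and Leprot both passed without KO replicate 4, Prlr alone passed without Control replicate 3, and neither passed in the other 6 fits. With total counts in place of TMM scaling neither passed (log2 fold changes 0.81 and -0.72).

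**Figure D3:**
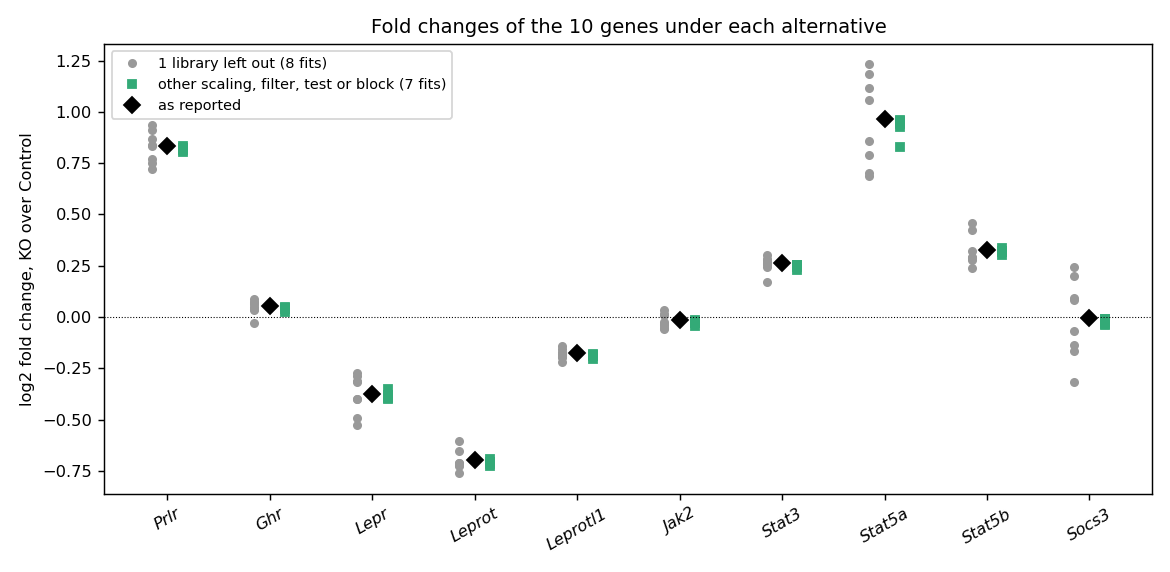
Log2 fold change of each gene as reported (black), with 1 library left out (grey, 8 fits) and under another scaling, filter, test or the replicate block (green, 7 fits). Prlr stays between 0.72 and 0.94 and Leprot between -0.76 and -0.60, whereas Ghr, Jak2 and Socs3 fall on either side of 0.

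The rest of the pathway was described with 8 lists of 85 genes, of which 70 passed the filter on low counts. Of those 70, 0 rose and 0 fell past an edgeR adjusted p of 0.05, beside 0.259% of all tested genes, and DESeq2 also called 0. At an unadjusted p of 0.05, 10 of the 70 (14.3%) passed against 10.6% of all tested genes. Their log2 ratios (KO over Control) were positive for 36 and negative for 34, with a median of 0.03.

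Of the ligands, leptin (Lep) had 1 count in 1 of 8 libraries, and Prl and Gh had 9014 and 63789 counts in KO replicate 2 and at most 2 and 85 in any other library. Of the 11 ligands 4 were tested and none passed. Ctf1, cardiotrophin 1, had the smallest p of those with a mean of at least 1 CPM (1.22 ± 0.700 CPM in KO and 1.57 ± 0.515 in Control, edgeR adjusted p = 0.851).

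Among the other class I receptors 16 of 23 were tested, 6 positive and 10 negative. Cntfr, the receptor subunit for ciliary neurotrophic factor, was the most abundant in CPM (80.1 ± 19.2 in KO and 81.7 ± 3.67 in Control, log2 ratio -0.03, edgeR adjusted p = 0.966). Il13ra1, a chain of the interleukin 13 receptor, measured 8.45, 6.47, 8.19 and 7.48 CPM in KO and 8.66, 10.6, 12.8 and 11.9 CPM in Control (log2 ratio -0.52, SE 0.15, edgeR adjusted p = 0.321). Its groups did not overlap, by 8.45 against 8.66 CPM. Csf2ra, the alpha chain of the GM-CSF receptor, was at 20.7 ± 7.71 and 14.8 ± 2.51 CPM (log2 ratio 0.48, edgeR adjusted p = 0.439). Of the 6 class II receptors, which bind interferons and interleukin 10, 1 was positive and 5 negative, with Ifngr2 at -0.20 and Ifngr1 at -0.40 (edgeR adjusted p = 0.614 and 0.569).

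The other 3 JAKs and 4 STATs had 0 genes past the threshold, with medians of 0.05 and -0.04. Jak1 was the most abundant other JAK (75.5 ± 20.5 CPM in KO and 67.9 ± 7.49 in Control, log2 ratio 0.15, edgeR adjusted p = 0.804), and Jak3 was low (1.18 ± 0.452 and 1.57 ± 0.548 CPM, edgeR adjusted p = 0.819). Stat6, the STAT of interleukin 4 signalling, was at 3.12 ± 0.716 and 2.73 ± 0.737 CPM (edgeR adjusted p = 0.897). Stat4, named after its values were seen, had the lowest ratio of the 4 (-1.67, SE 0.57, edgeR adjusted p = 0.436) on 2 to 36 counts per library. Of the 7 other SOCS family genes 5 were positive and 2 negative. Socs5 had the highest CPM of these (131 ± 26.3 in KO and 117 ± 6.90 in Control, edgeR adjusted p = 0.743), and Socs6 was at 12.2 ± 3.56 and 13.9 ± 1.18 CPM (edgeR adjusted p = 0.809).

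Adaptors and regulators held the smallest p of the 70. Cbl, a ubiquitin ligase that sends activated receptors to degradation, measured 68.3, 48.2, 64.0 and 67.8 CPM in KO and 36.6, 41.8, 50.6 and 49.9 CPM in Control (log2 ratio 0.47, SE 0.16, edgeR adjusted p = 0.199). KO replicate 2 lay below the highest Control libraries, so the groups overlapped. Irs4, an insulin receptor substrate, was at 118 ± 37.1 and 78.8 ± 23.5 CPM (log2 ratio 0.59, edgeR adjusted p = 0.376), with KO replicate 1 at 174 CPM above the other 3. Ptpn11, the phosphatase SHP2 that couples leptin receptor to ERK, was at 137 ± 15.5 and 133 ± 5.53 CPM (edgeR adjusted p = 0.933). Of 12 genes known as STAT targets 6 were positive and 6 negative, and none passed. The pair of smallest p were the survival gene Mcl1 (91.4, 96.3, 126 and 126 CPM in KO and 80.7, 74.7, 84.9 and 88.9 CPM in Control, log2 ratio 0.42, SE 0.13, edgeR adjusted p = 0.219), whose groups did not overlap, and the cell cycle inhibitor Cdkn1a (34.6 ± 10.7 and 22.9 ± 3.29 CPM, log2 ratio 0.59, edgeR adjusted p = 0.219).

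**Figure D4:**
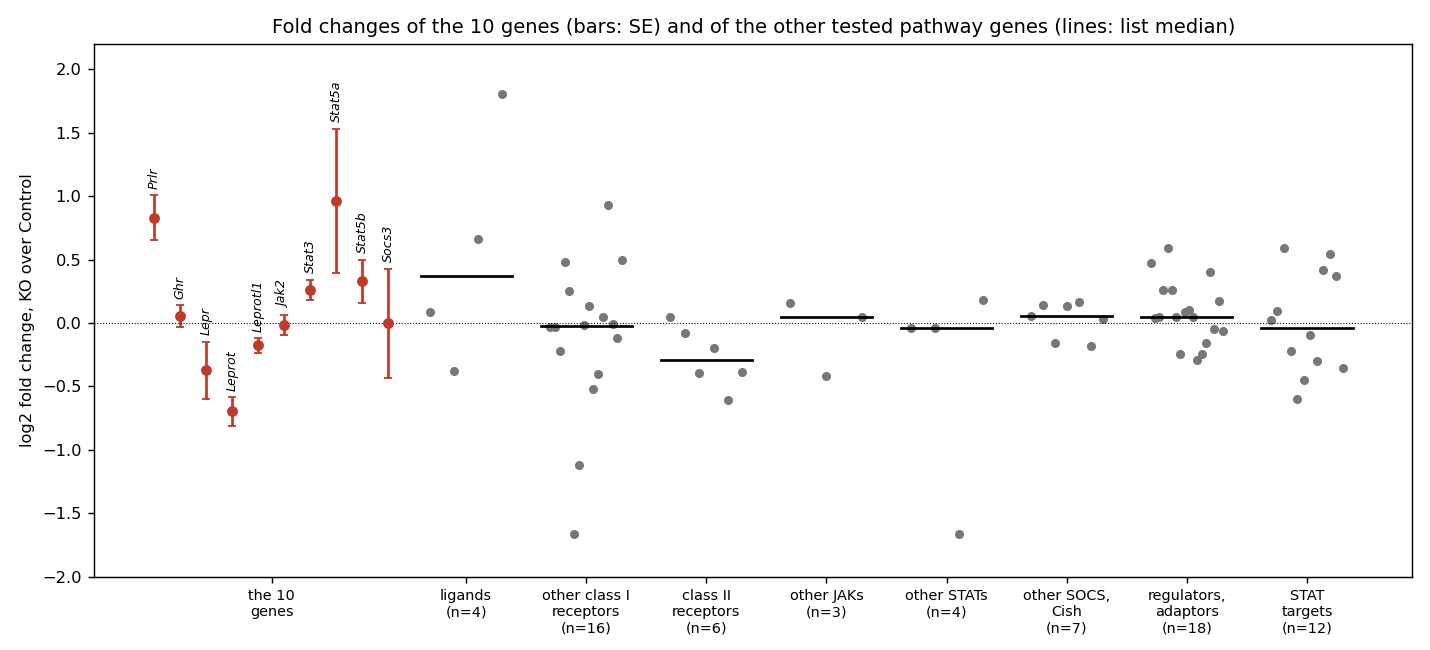
Log2 fold change of the 10 genes (red, bars are SE) beside the other tested pathway genes (grey dots) by list, with the list median as a line. Prlr at 0.83 and Leprot at -0.70 lie within the span of the other pathway genes (-1.67 to 1.81), whose median is 0.03. The ends of that span are genes of low count (2 to 36 and 0 to 223 counts per library). Among pathway genes with a mean of at least 1 CPM the span is -0.52 to 0.93, which holds Prlr and not Leprot. The upper end of this span is again a gene of low count (12 to 77 counts per library, SE 0.62). Next below it is Cdkn1a at 0.59, which is lower than Prlr.

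Other cell types were followed with 11 marker lists, whose summed CPM was compared by an exact two-sided permutation test with adjustment over the lists. None passed, but with 4 against 4 libraries a list that alone separated the groups fully could reach an adjusted p no lower than 0.314. The lack of a call therefore does not show that a cell type was equal between the groups. Markers of the Otp lineage were present and positive for 8 of 8 genes, with a median log2 ratio of 0.49, and 0 rose past the threshold. The lineage factor Otp was at 4.96 ± 2.54 CPM in KO and 3.45 ± 1.14 in Control, and Sim1, a transcription factor of the same neurons, at 22.4 ± 6.80 and 14.4 ± 3.45 CPM. The summed level of the list, most of it from the peptide genes Sst, Avp and Oxt, ran from 1121 to 2031 CPM for KO and 981 to 1042 CPM for Control (exact permutation p = 0.0286, the smallest 4 against 4 can give, and 0.314 adjusted), so like Prlr it did not overlap. Within KO the sum and the lineage factors did not rank alike. Sim1 was at 31.6, 19.9, 22.6 and 15.5 CPM in KO replicates 1 to 4, the same order as Prlr, and Otp at 8.55, 2.69, 3.81 and 4.80 CPM, whereas the sum was lowest in replicate 1 (1121 CPM) and highest in replicate 4 (2031 CPM). The part of the Otp lineage in the difference of Prlr was not tested.

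Oligodendrocyte markers were negative for 14 of 14 genes, 2 of which fell past the threshold (Cldn11 and Gjb1), beside 0.0648% of all tested genes, and summed to 1712 to 3126 CPM for KO and 2672 to 3393 CPM for Control (exact permutation p = 0.143, adjusted p = 0.629). KO replicate 1 was lowest at 1712 CPM, and without it Leprot was at a log2 ratio of -0.72, Prlr at 0.75 and Stat3 at 0.17, with none of the 10 genes past the threshold. Astrocyte markers were negative for 8 of 11 (940 to 1508 and 1085 to 1556 CPM), microglial markers for 13 of 14 (32.1 to 54.0 and 29.7 to 86.0 CPM) and ependymal and tanycyte markers for 7 of 8 (26.2 to 41.0 and 38.1 to 57.8 CPM). Endothelial and mural markers were negative for 9 of 15 (14.9 to 41.4 and 16.3 to 59.2 CPM), and fibroblast markers for 4 of 9 (17.4 to 62.7 and 10.4 to 62.2 CPM). Markers of all neurons were positive for 4 of 5 (11730 to 15866 and 11483 to 13587 CPM). The part of these cells in the differences of Prlr, Leprot and Stat3 was not tested.

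The choroid plexus, which is known to express Prlr and Lepr strongly, varied widely between libraries of both groups. Its 11 markers summed to 156 to 457 CPM for KO and 159 to 807 CPM for Control (exact permutation p = 0.83, adjusted p = 0.83), and 6 of the 10 tested were positive. Ttr, its most abundant transcript, was at 19.5, 176, 50.2 and 125 CPM in KO and 3.83, 60.0, 4.21 and 518 CPM in Control. Control replicate 4, highest in Ttr, also had the highest Leprot (31.3 CPM) and Lepr (3.20 CPM) of the 8 libraries, and a Prlr level of 14.5 CPM. KO replicate 2, next highest in Ttr, had the lowest Leprot (14.4 CPM) and Lepr (1.74 CPM) of the 8 libraries. The part of the choroid plexus in the differences of these genes was not tested. Pituitary markers summed to 1739 CPM in KO replicate 2 and to between 1.14 and 9.02 CPM in the other 7 libraries. Prlr in that library, at 23.4 CPM, lay inside the range of the other KO libraries. Markers of arcuate neurons summed to 448 to 635 CPM for KO and 479 to 521 CPM for Control, with Agrp at 1.19 to 5.17 CPM and Pomc at 15.3 to 97.2 CPM over all 8 libraries and Kiss1 at most 0.470 CPM.

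**Figure D5:**
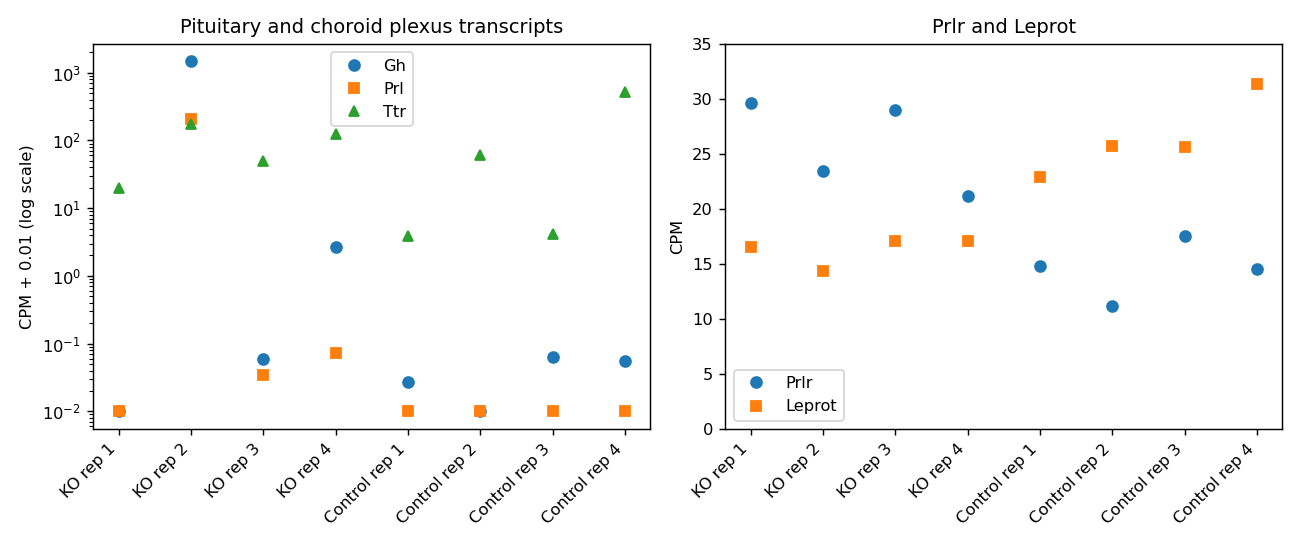
Left, CPM plus 0.01 (log axis) of the pituitary hormones Gh and Prl and the choroid plexus transcript Ttr in each library. Right, CPM of Prlr and Leprot in the same libraries. Gh and Prl peak in KO replicate 2 (1464 and 206.9 CPM) and Ttr in Control replicate 4 (518 CPM), where Leprot is also at its highest (31.3 CPM) and Prlr is at 14.5 CPM. Ttr is next highest in KO replicate 2 (176 CPM), where Leprot is at its lowest (14.4 CPM).

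The genes next to Prlr and Leprot, were looked up after the values were seen. Dnajc6 ends 4919 bases before Leprot on the same strand and was at 233 ± 19.6 CPM in KO and 194 ± 17.2 in Control (log2 ratio 0.27, SE 0.09, edgeR adjusted p = 0.410), the opposite sign to Leprot. The groups did not overlap for Dnajc6, by 219 against 217 CPM. Pde4b, the next tested coding gene after Leprot and Lepr, had a log2 ratio of 0.28 (edgeR adjusted p = 0.440). Dnajc21, the nearest tested coding gene after Prlr, was at 110 ± 23.2 and 111 ± 6.88 CPM (log2 ratio -0.01, edgeR adjusted p = 0.991), and Spef2, the nearest before it, was under 2.01 CPM in all 8 libraries (edgeR adjusted p = 0.953).

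Likeness of pattern was measured as the root mean square difference of log2 CPM over the 8 libraries, each gene centred on its own mean, among 13653 genes with a mean of at least 1 CPM. Closest to Prlr were Camk1g, a calcium/calmodulin-dependent kinase (0.119, at 36.4 ± 6.36 CPM in KO and 19.5 ± 2.52 in Control), Aff2 (0.131) and Smyd3 (0.159). Closest to Leprot were E2f1, a cell cycle transcription factor (0.120, at 5.34 ± 0.362 and 7.95 ± 0.803 CPM), Aif1l (0.121) and Desi1 (0.131, at 123 ± 3.40 and 184 ± 7.58 CPM). Closest to Lepr were Cep164 (0.150), Gtpbp1 (0.151) and Cfb (0.162). The libraries share their group structure and scaling, so genes that differ between the groups by a like amount score as alike.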

How the data were processed

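The authors deposited raw read counts per gene symbol, 1 table per library, for 4 KO and 4 Control libraries. Per the submitters' processing notes they used TopHat2 2.0.9 and HTSeq on mm10, and DESeq2 is also named. Not given in the sources used here are the annotation, strand setting and HTSeq version. The cDNA was amplified from 10 ng of RNA without molecular identifiers, per the labels' protocols, so copies of 1 molecule count separately. Each table had 24421 gene rows. The 92 ERCC spike-in rows (0.0569% to 0.522% of gene counts) and 5 HTSeq counter rows were left out. Of all counted records, 63.3% to 81.9% were alignments that were not unique, 7.98% to 8.98% lay in no feature and 0.250% to 0.703% were ambiguous.

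The test was that of edgeR 4.0.16, run in R 4.3.3 (filterByExpr with minimum count 10 and minimum total 15, TMM scaling, quasi-likelihood model with robust dispersion, 4 KO against 4 Control, Benjamini-Hochberg over 15438 genes, threshold 0.05). SE is that of the difference of group means of log2 CPM (prior count 1). Single sums were compared by exact permutation tests. The fit was tested on simulated counts. Lengths and positions are from GENCODE M21 (GRCm38) and start-site sequences from RefSeq (GRCm38.p6). The 10 genes and all lists were chosen with earlier results of these data known. The text names the 10 genes and Cic, and of each pathway list any gene past the threshold, the 2 of smallest p at a mean of at least 1 CPM and the most abundant, plus Prl, Gh and Lep, and defining markers of the marker lists. Single values of 2 list genes that this rule names are not reported here, while list counts and sums include them. Cldn11, Gjb1, Stat4 and the neighbours of Prlr and Leprot were chosen after their values were seen. Alternatives were DESeq2 1.42.0, 4 other scalings, no filter, a replicate block and leaving out each library. The smallest chi-square per degree of freedom over 28 pairs of libraries was 26.9, so no library repeats another.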

Additional observations from a re-analysis of the deposited data

Results flagged for a closer look

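In 142 groups of 4 libraries (the 10 genes, the named pathway genes, defining markers and marker sums, each in KO and in Control), 16 had a library set apart from the other 3 by more than Dixon's 95% critical value, which chance passes in about 1 of 20 groups. Among the 10 genes only Stat5b was marked, with KO replicate 3 at 21.39 CPM against 28.6 to 29.3 CPM in the other KO libraries.

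KO replicate 2 was set apart in Gh (1464 CPM), Prl (206.9 CPM), Tshb (3.145 CPM), the pituitary sum (1739 CPM) and Foxj1 (13.38 CPM). Control replicate 4 was set apart in Ttr (518.3 CPM), Kcnj13 (4.765 CPM), the choroid plexus sum (806.8 CPM), Snap25 (12080 CPM) and the sum of neuronal markers (13590 CPM). Single libraries were also set apart for Irs4 (KO replicate 1, 173.6 CPM), Agrp (KO replicate 4, 4.68 CPM), Flt1 (Control replicate 1, 8.16 CPM), Stat6 (Control replicate 3, low at 1.64 CPM) and Lep (Control replicate 3, 0.02646 CPM from 1 count).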

How the results depend on the processing

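The log2 fold changes of the 10 genes moved by less than the spread between replicates in all 150 combinations of gene and alternative. Leaving out 1 library can move a group mean by only part of that spread, so the 8 such fits could hardly have come out otherwise. In those fits the log2 fold changes ran from -0.03 to 0.09 for Ghr, -0.06 to 0.04 for Jak2 and -0.32 to 0.24 for Socs3, on either side of 0. The number of genes past the threshold, 40 as reported, was 26 with total counts only, 198 with the DESeq2 test and 65 with the replicate block, and 14 to 53 with 1 library left out. The share of calls higher in KO was 75.0% as reported, 60.1% with the DESeq2 test, 66.2% with the replicate block and 88.5% without Control replicate 3. The labels do not tie equal replicate numbers to one litter or day, and deviations of same-numbered libraries correlated at -0.05 to 0.10, with 2 of 8 libraries closest to their own number. Among the 10 genes, 2 passed with the block, as without it. The 70 tested pathway genes gave 0 calls under every alternative run, including the 8 fits that left out 1 library. Sign changes of the pathway genes named above, all with 1 library left out and none past the threshold, were those of Cntfr (-0.17 to 0.062) and Ptpn11 (-0.025 to 0.10). With 1 library left out, the KO minus Control difference in summed CPM ran from -161 to 28.2 for astrocyte markers, -6.01 to 11.3 for fibroblast markers, -14.3 to 47.9 for arcuate neurons, -9.73 to 4.55 for endothelial and mural markers and -107 to 109 for the choroid plexus. With the longest transcript as length, Control levels became 3.90 CPM per kb for Stat3, 4.95 for Ghr, 1.47 for Prlr, 0.479 for Lepr and 0.178 for Stat5a, by construction, since each transcript is shorter than the merged exons. The fewest counts per library among the 10 genes were those of Stat5a (16 to 100), Socs3 (19 to 63) and Lepr (70 to 147).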
